A study of Mus musculus with 8 samples.

Results

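The genes described here encode the proteins of the cytosolic ribosome. They were the rows whose symbol starts with Rpl or Rps and a digit, together with Rpsa, Rplp0, Rplp1 and Rplp2, leaving out S6 kinases, symbols with -ps, Rps19bp1 and Rpl7l1. The rule found 84 of the 23469 genes listed, namely 46 large-subunit genes, 31 small-subunit genes and 7 paralogs of a core gene. They lie on 19 chromosomes. Bulk RNA-seq was made from macrophages sorted from the bloody malignant ascites of female C57BL/6 mice of the Ms4a3TdT genotype (Ms4a3Cre-RosaTdT). ID8 mouse ovarian tumour cells had been injected into the peritoneum at 4 to 5 weeks of age, the ascites was taken 65 days later, and the treatment label was none in every sample. The groups were 4 libraries of tdTomato-negative embryonic-derived macrophages (AeEM) and 4 of tdTomato-positive monocyte-derived macrophages (AeMM). Cre is driven by Ms4a3, a gene of granulocyte-monocyte progenitors, so cells that never came from such a progenitor, or whose label did not recombine, fall in the tdTomato-negative gate. Tumour-free animals were not among the groups compared.

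A ribosome is built from RNA and from the products of these genes, which are mostly needed in equal amounts, in a small subunit that reads the mRNA and a large subunit that joins amino acids. Their mRNAs are abundant in nearly every cell, and many begin with a run of pyrimidines, the 5′ terminal oligopyrimidine (TOP) motif, through which mTORC1 and Larp1 control their translation. Each gene has many processed pseudogenes in the mouse genome, which makes short reads from these mRNAs hard to place.

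The values were log2(TPM + 1), where TPM is a level scaled to transcript length and to the library total, and the pseudocount is 1. In the deposited table the per-gene means of 3 sets of libraries almost coincide (a set each for replicate 1 and replicate 2, and a joint one for replicates 3 and 4), which shows an adjustment between the sets. Read counts were not used and TPM keeps no depth, so the depth of each library is unknown. The 7 macrophage markers were all expressed, at 69176 to 85383 summed TPM. Of other cell types, 3 of 7 conventional dendritic cell markers could be tested, and 2 of these passed as higher in AeEM. The summed TPM of the 7 was 44.1 to 106 in AeEM and 6.29 to 13.4 in AeMM. Of 5 neutrophil markers only 1 could be tested, and it passed as lower in AeEM. Neutrophil markers summed to 10.7 to 12.8 TPM in AeEM and 22.2 to 29.9 in AeMM. Of all genes tested, 1.25% passed as higher and 1.16% as lower. Of 4 monocyte markers, Ly6c2 passed as lower in AeEM, while their summed TPM was 166 to 257 in AeEM and 142 to 195 in AeMM, and Ly6c2 was also the sort-gate gene that passed as lower. The 4 haemoglobin genes summed to 7663 to 12739 TPM in AeEM and 4207 to 10471 in AeMM. All 4 B cell markers could be tested and 0 passed, at 34.3 to 84.6 summed TPM in AeEM and 65.2 to 76.3 in AeMM. T cell, NK cell and mast cell markers had no gene at a mean of 1 TPM. The part of these cells in the results was not tested, and in bulk samples fewer cells of a type and less RNA per cell cannot be told apart.

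Ribosomal protein mRNA was a small and similar share of both populations. The 84 genes held 3.24%, 2.85%, 3.29% and 2.82% of the summed TPM in AeEM replicates 1 to 4 and 3.11%, 3.43%, 3.39% and 2.97% in AeMM replicates 1 to 4. The means were 3.05% ± 0.252 (SD, n = 4) and 3.22% ± 0.220 (SD, n = 4), and the groups overlapped. The large subunit accounted for 1.62% to 1.90% in AeEM and 1.67% to 1.97% in AeMM, and the small subunit for 1.11% to 1.31% and 1.21% to 1.38%. These are descriptions with no test.

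The levels of the genes differed far more than the groups did. On the TPM scale, 81 genes averaged 1 TPM or more and could be tested, with a median of 219 TPM against 5.98 TPM over all 8801 genes tested. The highest was Rpl10, needed for joining the subunits, at 1919 TPM, followed by Rplp0 at 1259 TPM and Rplp1 at 1203 TPM. Rps9 (1043 TPM) and Rpl41 (1016 TPM) came next, and 6 genes in all passed 1000 TPM. The lowest was Rpl23a at 17.2 TPM, so the tested genes covered a 111-fold range although their products are mostly used in equal amounts. The 3 genes that were not tested, Rpl10l, Rpl39l and Rpl3l, are paralogs with means of 0.0162, 0.146 and 0.128 TPM.

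Across the list the AeEM level was slightly below the AeMM level. The median difference, AeEM minus AeMM, was -0.14 on the log2 scale over the 81 genes, against -0.01 over all genes tested, and 67 of 81 differences were negative (82.7%) against 4503 of 8801 (51.2%). The quartiles of the 81 differences were -0.20 and -0.05. The median was -0.11 for the 46 large-subunit genes and -0.14 for the 31 small-subunit genes. Few single genes passed a test. In the unpaired limma fit, at a Benjamini-Hochberg adjusted p of 0.05 over all genes, 2 of 81 were lower in AeEM (2.47%), where 1.16% of all genes tested passed as lower, and 0 were higher, where 1.25% passed. At an unadjusted p under 0.05, 20 were lower (24.7%, against 9.33% of all genes tested) and 1 was higher (1.23%, against 8.70%). With the 3 sets as a term, 0 of 81 passed in either direction (0.0568% of all genes passed as lower and 0.102% as higher), and 13 had an unadjusted p under 0.05 (16.0%, against 9.64% of all genes).

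**Figure D1:**
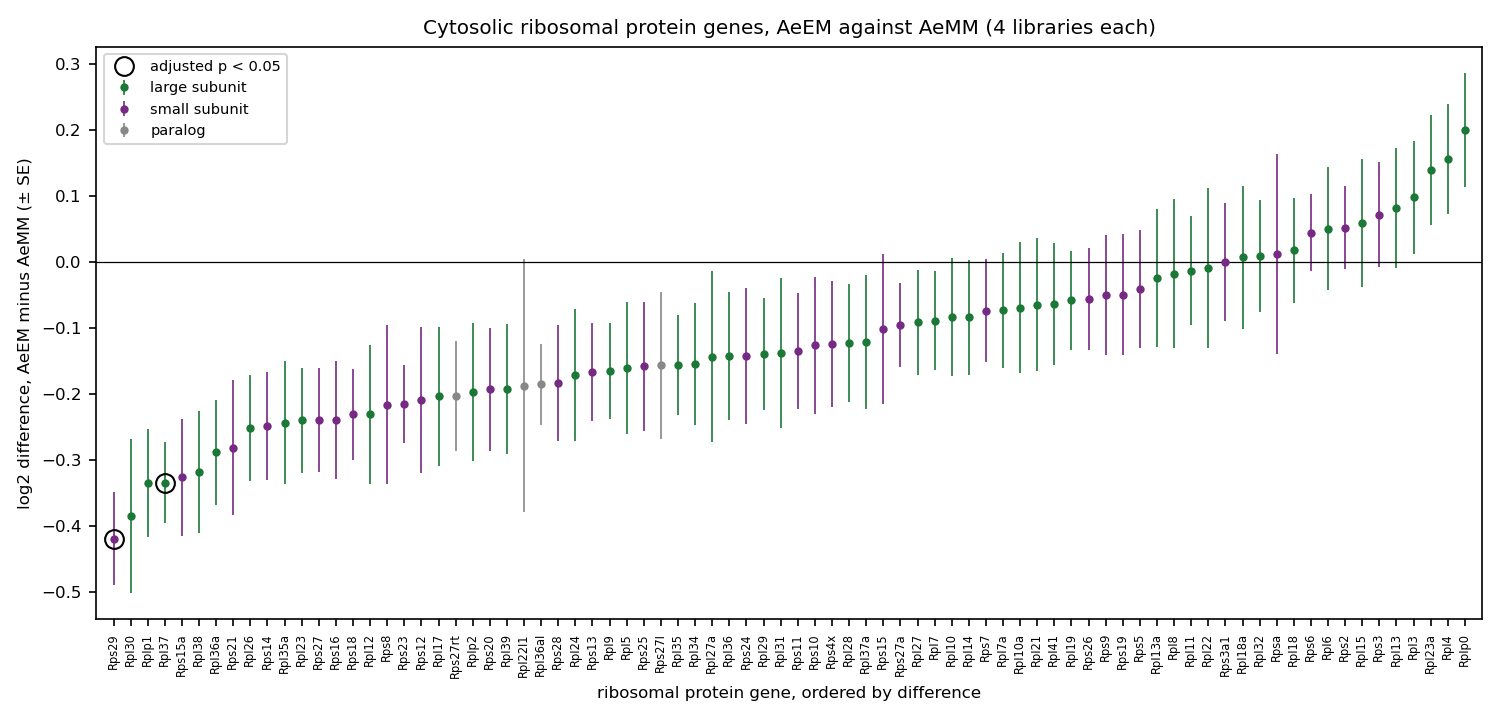
Log2 difference, AeEM minus AeMM (vertical axis), of 80 of the 81 ribosomal protein genes tested, ordered along the horizontal axis. Points are fitted differences, bars are ± 1 standard error of the unpaired fit, and colours mark the subunit or paralogs. Open circles mark the 2 genes with an adjusted p under 0.05 in the unpaired fit, Rps29 and Rpl37. With the 3 sets as a term their standard errors were larger, at 0.0901 and 0.0900. The differences run from -0.42 to 0.20, and 66 of 80 lie below 0.

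The lowest difference belonged to Rps29, which encodes a small zinc-binding protein of the small subunit (on chromosome 12). Its log2(TPM + 1) was 8.58, 8.56, 8.72 and 8.66 in AeEM replicates 1 to 4 and 9.17, 9.12, 8.99 and 8.93 in AeMM replicates 1 to 4. All AeEM libraries were below all AeMM libraries. The difference was -0.42 (SE 0.0703), which is 396 TPM against 530 TPM, with an adjusted p of 0.0213 in limma and 0.185 with the 3 sets as a term. It did not pass either when AeEM replicate 1 or 2, or AeMM replicate 1 or 2, was left out (limma adjusted p 0.0858, 0.0788, 0.0725 and 0.0813). As the set means almost coincide, leaving out 1 of these libraries keeps the nearly opposite deviation of its partner. The fits without either library of a set are therefore not separate checks.

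Rpl37, a zinc-binding protein of the large subunit (chr15:5116645-5119140, plus strand, GRCm38), was the other gene that passed. Its log2(TPM + 1) was 6.42, 6.33, 6.38 and 6.36 in AeEM replicates 1 to 4 and 6.71, 6.74, 6.61 and 6.77 in AeMM replicates 1 to 4. The groups did not overlap, and the difference was negative in each of the 3 sets, at -0.28, -0.41 and -0.32. The difference was -0.33 (SE 0.0612), which is 82.0 TPM against 104 TPM, with an adjusted p of 0.0274 in limma and 0.293 with the 3 sets as a term. Leaving out 1 library gave adjusted p values between 0.0313 and 0.105, and the gene passed only without AeEM replicate 3 or AeMM replicate 3. The coding sequences of Rps29 and Rpl37 are short, at 168 and 291 bases without the stop codon, and that of Rpl37 is printed from its GENCODE M21 transcript.
Rpl37: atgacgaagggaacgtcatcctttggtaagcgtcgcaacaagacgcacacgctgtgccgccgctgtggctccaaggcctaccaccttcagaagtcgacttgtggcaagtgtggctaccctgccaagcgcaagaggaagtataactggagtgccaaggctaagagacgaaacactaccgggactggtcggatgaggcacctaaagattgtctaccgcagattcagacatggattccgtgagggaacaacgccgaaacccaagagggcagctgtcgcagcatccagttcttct

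**Figure D2:**
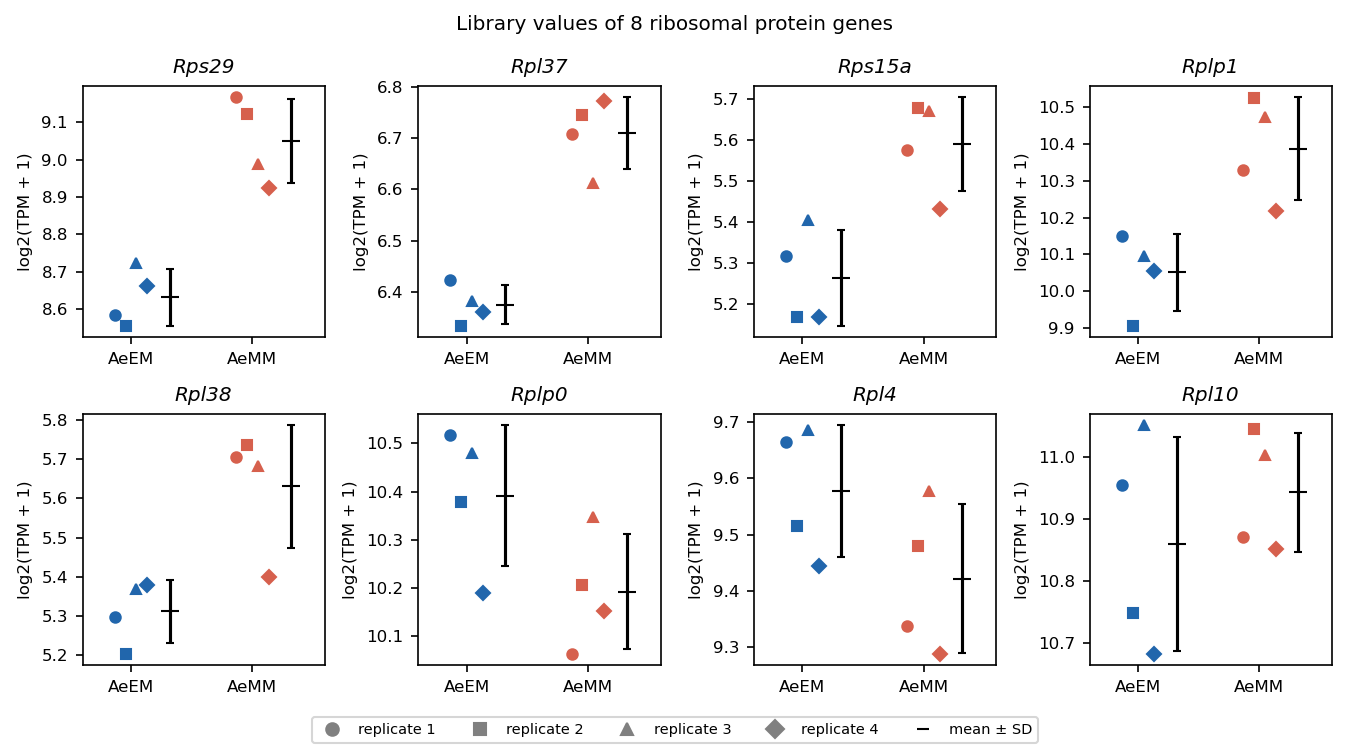
Log2(TPM + 1) (vertical axes, which do not start at 0) of 8 ribosomal protein genes in each library, with AeEM in blue and AeMM in red; symbols mark the replicate number, and the black bar is the mean ± SD of 4 libraries. Rps29, Rpl37, Rps15a, Rplp1 and Rpl38 do not overlap between the groups, and Rplp0, Rpl4 and Rpl10 do.

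Beyond Rps29 and Rpl37, 9 genes separated the groups without passing the test. In 11 of 81 genes (13.6%) all 4 AeEM libraries were below all 4 AeMM libraries, against 6.53% of all genes tested, and in 0 of 81 they were above, against 5.72%. Among the 11 were Rps29, Rplp1, Rpl37, Rps15a, Rpl38, Rpl36a, Rpl26, Rps14, Rps18 and Rps23, most of which were named after their values were seen. Rpl38, whose loss disturbs skeletal patterning in mice, had 5.30, 5.20, 5.37 and 5.38 in AeEM and 5.71, 5.74, 5.68 and 5.40 in AeMM (log2(TPM + 1)), with AeMM replicate 4 nearest to the other group. Its difference was -0.32 (limma adjusted p 0.115). Rpl30 had a difference of -0.38, but its groups overlapped and its adjusted p was 0.128 in limma.

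The stalk of the large subunit, where elongation factors dock, had genes with differences of both signs, and none of them passed. Rplp1, an acidic stalk protein, had 10.15, 9.91, 10.10 and 10.05 in AeEM replicates 1 to 4 and 10.33, 10.53, 10.47 and 10.22 in AeMM replicates 1 to 4 (log2(TPM + 1)), with no overlap. Its difference was -0.33 (SE 0.0813, limma adjusted p 0.0717). Rplp2, its partner, differed by -0.20 (limma adjusted p 0.373). Rplp0, the stalk base, had 10.52, 10.38, 10.48 and 10.19 in AeEM and 10.06, 10.20, 10.35 and 10.15 in AeMM (log2(TPM + 1)), and the groups overlapped. Its difference of 0.20 (SE 0.0867, limma adjusted p 0.267) was the highest among the 81 genes. The next were Rpl4 at 0.16, which lines the exit tunnel, Rpl23a at 0.14 and Rpl3 at 0.10, and none of them passed. None of these differences was compared between genes by a test. The coding sequences of Rplp1 and Rplp2 have 342 and 345 bases and that of Rplp0 has 951, and the part of length was not tested.

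Some genes were named for a known role, for their level or as the core gene of a paralog. Those listed in this paragraph gave small differences, and none passed. Others named on the same grounds differed more, and none of them passed. These were Rplp1 (-0.33), Rpl38 (-0.32), Rpl36a (-0.29), Rps27 (-0.24) and Rplp0 (0.20). Rps6, the target of S6 kinases, differed by 0.04 (limma adjusted p 0.760). Rps19, the gene most often mutated in Diamond-Blackfan anaemia, differed by -0.05 (0.839). Rpl5 and Rpl11, which bind Mdm2 when ribosome assembly is disturbed, differed by -0.16 (0.451) and -0.01, and neither passed. Rpsa, also known as a laminin receptor precursor, differed by 0.01 (0.981), and Rps27a, made as a fusion with ubiquitin, by -0.10 (0.488). Rpl10 differed by -0.08 (0.692), Rps9 by -0.05 (0.835) and Rpl41 by -0.06 (0.785). Rps4x, the X-linked form of a small-subunit protein, differed by -0.12 (0.559).

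The libraries of a group did not move together. The median deviation of the 81 genes from their own means was 0.00, -0.18, 0.10 and -0.16 on the log2 scale in AeEM replicates 1 to 4, and 0.03, 0.17, 0.11 and -0.07 in AeMM replicates 1 to 4. AeEM replicates 2 and 4 were the lowest library for 36 and 32 genes, and AeMM replicate 2 was the highest for 41. Because the set means almost coincide, the AeEM and AeMM libraries of replicate 2 deviate by nearly opposite amounts, and so do those of replicate 1. Within each of these sets the deviations reflect a single difference and are not separate observations. AeEM replicate 3 stood above the mean of 61 genes, and AeMM replicate 4 above that of only 20. Within the sets, the median difference was -0.03 in replicate 1 (45 of 81 negative), -0.35 in replicate 2 (77 negative) and -0.05 in replicates 3 and 4 (55 negative), where all genes tested had medians of -0.01, -0.14 and 0.05. Without both replicate 2 libraries, a setting chosen after seeing the data, the median was -0.05, against 0.03 for all genes, and 0 genes of the list passed.

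**Figure D3:**
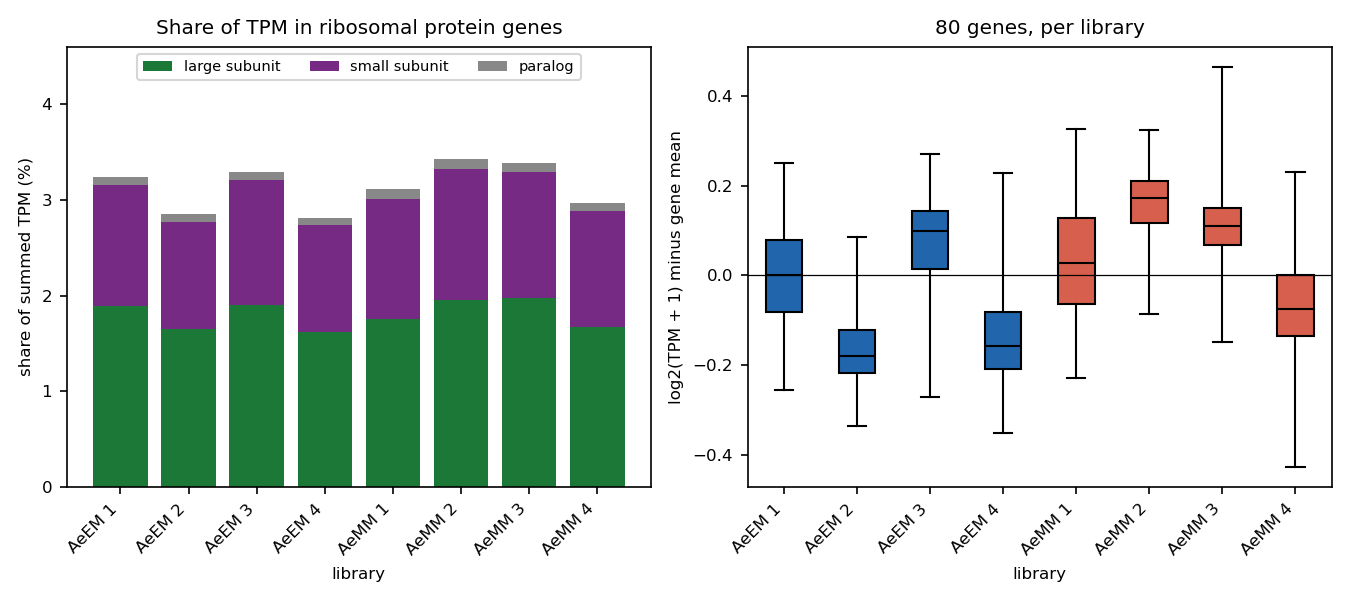
Left, share of summed TPM (%, axis from 0) held by ribosomal protein genes in each library, stacked by subunit and paralogs. Right, log2(TPM + 1) minus the mean of each gene for 80 of the 81 genes tested, with boxes for the quartiles, the line for the median and whiskers to the extremes, AeEM in blue and AeMM in red. The medians run from -0.18 in AeEM replicate 2 to 0.17 in AeMM replicate 2.

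The differences varied with the coding length of the gene. The median difference was -0.20 for the 11 genes with up to 300 coding bases, -0.19 for the 29 with 301 to 450, -0.13 for the 19 with 451 to 600, -0.02 for the 19 with 601 to 900 and 0.16 for the 3 over 900, which are Rplp0, Rpl3 and Rpl4. All 11 of the shortest genes were below 0, and 0 of the 3 longest. Over the 81 genes, Spearman's rho between coding length and difference was 0.64, a description across genes that share their libraries, with no p. Among other protein-coding genes tested the shortest classes were also lower, at -0.11 for 216 genes of up to 300 bases and -0.08 for 494 genes of 301 to 450, and the longer classes had medians from 0.00 to 0.02. Over those 8174 genes the same correlation was -0.01. The 11 genes of up to 300 bases deviated from their own means by library medians of -0.21 to -0.05 in AeEM and -0.05 to 0.20 in AeMM. As the set means almost coincide, these ranges partly mirror each other and are not independent. The part of transcript length, or of the library preparation, in the differences was not tested.

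**Figure D4:**
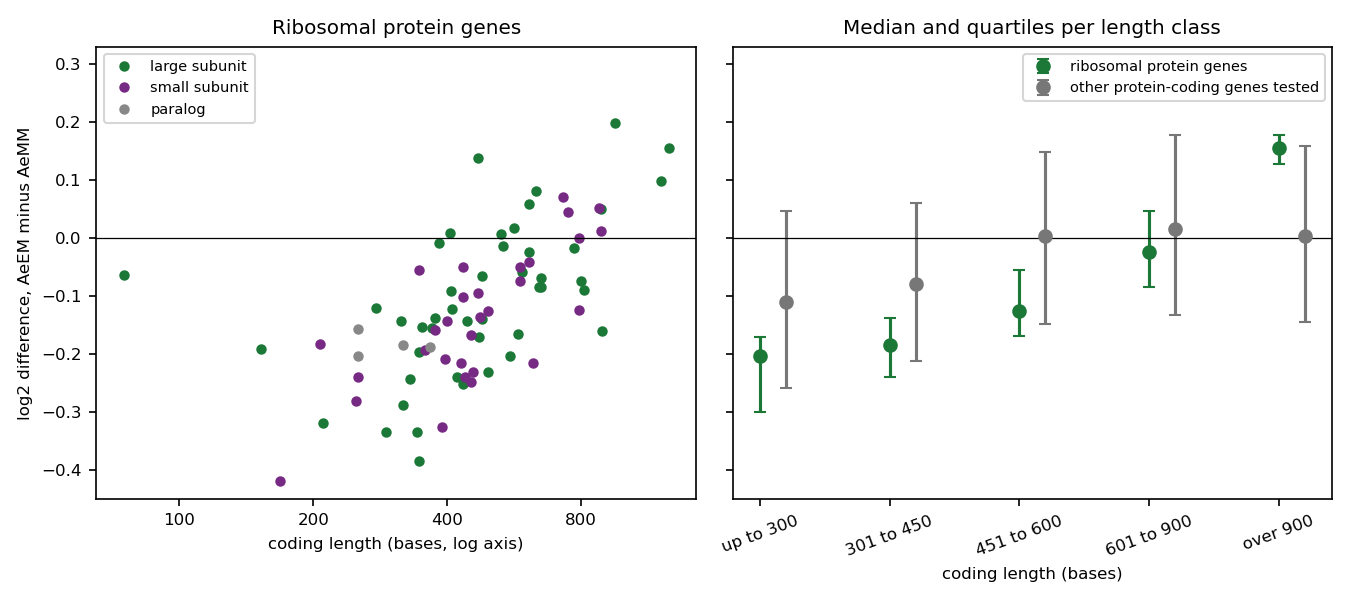
Left, log2 difference, AeEM minus AeMM, against coding length in bases (log axis) for 80 of the 81 ribosomal protein genes tested, coloured by subunit. Right, median difference with quartile bars in 5 classes of coding length, for ribosomal protein genes in green and other protein-coding genes tested in grey. The green medians rise from -0.20 to 0.16, and the grey medians from -0.11 to 0.00.

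Paralogs can encode alternative forms of a core ribosomal protein, whereas Rps27rt has the same coding sequence as Rps27. The 4 paralogs tested, Rpl22l1, Rpl36al, Rps27l and Rps27rt, differed by -0.19, -0.19, -0.16 and -0.20, and none passed (limma adjusted p 0.676, 0.160, 0.520 and 0.238). The difference of Rps27l turned to 0.11 with replicates 3 and 4 only. Rpl36al was the more abundant of its pair at 508 TPM against 85.8 TPM for Rpl36a, which differed by -0.29 (limma adjusted p 0.0996). Rpl22l1 stood at 44.6 TPM and Rpl22 at 25.1 TPM. Rpl22 differed by -0.01 (limma adjusted p 0.983), Rpl39 by -0.19 (0.358) and Rpl3 by 0.10 (0.615). Rps27 stood at 959 TPM, Rps27rt at 167 TPM and Rps27l at 136 TPM, and Rps27 differed by -0.24 (limma adjusted p 0.159).

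For the Rps27 family the coding sequences were compared. The coding sequences of Rps27 (chr3:90212522-90213651) and Rps27rt (chr9:114982366-114982739) are identical over all 252 bases, whereas Rps27l (chr9:66946086-66949516) differs from Rps27 at 60 bases (76.2% identity), in capitals. The values of Rps27 and Rps27rt are therefore uncertain, and both had a positive difference in replicate 1, at 0.00 and 0.10, and a negative one in the other sets.
Rps27: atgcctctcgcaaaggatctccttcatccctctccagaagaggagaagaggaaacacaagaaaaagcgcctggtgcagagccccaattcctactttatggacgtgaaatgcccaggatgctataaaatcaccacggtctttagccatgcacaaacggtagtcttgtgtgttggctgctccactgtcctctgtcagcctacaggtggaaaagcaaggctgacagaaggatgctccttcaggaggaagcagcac
Rps27l: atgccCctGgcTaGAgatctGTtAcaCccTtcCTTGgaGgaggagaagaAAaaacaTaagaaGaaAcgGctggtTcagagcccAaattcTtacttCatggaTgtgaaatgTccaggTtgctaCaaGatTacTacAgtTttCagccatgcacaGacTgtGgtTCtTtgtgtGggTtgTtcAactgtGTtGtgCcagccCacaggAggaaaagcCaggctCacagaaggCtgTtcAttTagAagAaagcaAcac

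Most genes of the list had near-identical copies elsewhere in the GENCODE M21 transcripts. With at least 95% identity over at least 90% of the coding sequence, 78 of 84 had a copy, with a median of 5 and a highest number of 56, for Rpl21. The 17 tested genes with at least 10 copies had a median difference of -0.14, and the 4 tested genes with 0 copies had -0.03. Of 563 copies that are not members, 9 were listed in the table and 6 of these had a mean of at least 1 TPM. Gm10076, annotated as a lincRNA on chr14:105681828-105682211, was the most abundant at 1185 TPM, above Rpl41 itself at 1016 TPM, and its transcript holds the whole 75-base Rpl41 coding sequence with 0 differences. How reads from the shared sequence were divided between Gm10076 and Rpl41 is not known, so the values of both are uncertain. The pair had differences of opposite sign, 0.14 for Gm10076 (limma adjusted p 0.342) and -0.06 for Rpl41, and neither passed. Rpl41 turned positive with replicates 3 and 4 only (0.149) and without both replicate 2 libraries (0.0297). Gm2000, a copy of Rpl35, stood at 270 TPM and differed by -0.23 (limma adjusted p 0.141) with no overlap between the groups. These copies are named for their sequence and were chosen after their values were seen.
Rpl41: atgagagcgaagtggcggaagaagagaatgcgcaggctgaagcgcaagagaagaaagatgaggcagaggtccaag

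The start of some genes carried the letters of a TOP motif. RefSeq promoter windows (GRCm38.p6) were available for 64 of the 84 genes, in 76 windows. A C at the annotated start followed by at least 4 C or T was found, on the strand of the gene, in 14 windows (18.4%), against 2.51% of all 32851 windows. Only a run at exactly the annotated base counted, so runs that begin nearby, as in Rpl18, were not matches. The match therefore does not separate genes with a TOP motif from genes without one. The median difference was -0.20 for the 14 genes with a match and -0.12 for the 47 tested genes with an entry and no match, as a description. Rps6, Rpl38, Rps15a and Rplp2 are shown as matches from 15 bases before to 15 bases after the annotated start, with the matching letters in capitals, and Rpl37 as the gene that passed and has an entry.
Rps6: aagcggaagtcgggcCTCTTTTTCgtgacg
Rpl38: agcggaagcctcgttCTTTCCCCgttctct
Rps15a: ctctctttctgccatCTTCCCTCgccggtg
Rplp2: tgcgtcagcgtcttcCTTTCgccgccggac
Rpl37: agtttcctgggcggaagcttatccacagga

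Other genes of ribosome production and translation were read from lists. Of the ribosomal proteins with other symbols, 3 were tested. Fau, a ubiquitin-like fusion, and Rack1, a scaffold on the small subunit, differed by -0.04 and -0.14. The remaining gene differed by 0.22, above the highest of the 81 genes. In limma, 0 of 3 passed or had an unadjusted p under 0.05. Among 11 elongation factors and other TOP mRNAs tested, Eif5a, a translation factor that carries hypusine, was higher in AeEM by 0.35 (limma adjusted p 0.0118) with no overlap between the groups. Tpt1, a TOP mRNA that encodes a tumour protein bound to microtubules, was lower by -0.35 (limma adjusted p 0.0259), also with no overlap. With the 3 sets as a term their adjusted p values in limma were 0.187 and 0.234. Eef1a1, which brings tRNA to the ribosome, differed by 0.00, and Eef2, which moves the ribosome along, by 0.13, and neither passed.

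The remaining lists had 0 genes past the threshold in limma in either direction, with 7 of 44 ribosome biogenesis genes, 1 of 11 RNA polymerase I genes, 6 of 34 initiation factors, 1 of 15 mTORC1 and S6 kinase genes, 0 of 8 Myc partners and 9 of 76 mitochondrial ribosomal protein genes at an unadjusted p under 0.05, where 1587 of all 8801 genes tested were. The median difference was 0.11 over the 44 biogenesis genes, with 35 of them positive, where 4298 of all 8801 genes tested were. In replicate 1, replicate 2 and replicates 3 and 4 their medians were 0.10, -0.01 and 0.25. All genes tested had -0.01, -0.14 and 0.05. The median was -0.08 for RNA polymerase I, 0.03 for initiation, 0.07 for mTORC1, 0.00 for Myc and its partners and -0.01 for the mitochondrial ribosome. Ncl and Npm1, nucleolar proteins of ribosome assembly, differed by 0.06 and 0.04. Myc, which drives transcription of ribosome genes, differed by 0.26 (limma adjusted p 0.362), Larp1 by 0.09 and Eif4ebp1 by -0.14. Mtor stood at a mean under 1 TPM and was not tested.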

How the data were processed

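Smart-seq2 bulk RNA-seq of 4 AeEM and 4 AeMM libraries was used. Per the labels and the methods of the study, the authors used fastp for read cleaning, STAR 2.7.2a for mapping against mm10 and featureCounts of Subread for counting. The authors deposited 1 table of log2 values, log2(TPM + 1), adjusted between 3 sets of libraries. The conversion, the adjustment, the annotation and the handling of multi-mapped reads are not given in the sources used here. Depth is unknown, so precision rests on the spread of 4 libraries.

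The design had assumed plain TPM, and the deposited log2 values were used as they stand. AeEM minus AeMM was fitted in limma 3.58.1 (R 4.3.3), unpaired and two-sided, allowing a mean-variance trend, in the 8801 genes that averaged 1 TPM or more, with Benjamini-Hochberg adjustment and a threshold of 0.05. A second fit that includes the 3 sets was made, because the adjustment removes set means, which the unpaired fit does not account for. The unpaired standard errors and p values therefore tend to be too small. For most named genes only the unpaired adjusted p is printed. The labels call the samples biological replicates, and neither they nor the paper say that equal numbers share a mouse. A check of pairing is void after the adjustment. Both fits were tested on simulated data.

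The members and lists were chosen with earlier results of these data known. Named genes were members past the threshold, the 5 highest in level, a fixed set of members, paralog pairs and list genes past the threshold. Other members named, copies and the setting without replicate 2 were chosen after values were seen. Coding sequences and lengths came from GENCODE M21, copies from BLAST 2.17.0 and promoter windows from RefSeq (GRCm38.p6). Some items are not reported here. Alternatives changed the pseudocount (0.1 and 5), filter (none and 5 TPM), scaling, trend, sets, block, libraries, threshold and paralogs.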

Additional observations from a re-analysis of the deposited data

Results flagged for a closer look

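In AeMM replicate 4, Rpl38 stood at 5.40 on the log2(TPM + 1) scale, far below the other AeMM libraries at 5.68 to 5.74. The gap to the nearest library was 0.845 of the range of the group, above the critical value for 4 samples. Of 68 groups of 4 values examined, 1 stood out in this way, and chance gives about 1 in 20.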

How the results depend on the processing

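The median difference of the list was -0.14 and kept its direction under all alternatives, from -0.05 with replicates 3 and 4 only, or without both replicate 2 libraries, to -0.18 without AeEM replicate 3. No ribosomal protein gene passed as higher under any alternative. The count of genes lower, 2, became 5 with quantile normalization, 6 with median-of-ratios size factors and 0 without the trend, with the 3 sets as a term, with the replicate block, with replicates 3 and 4 only, without both replicate 2 libraries, or at an absolute log2 difference of at least 0.5. Leaving out 1 library gave 0 to 4. It was 0 without replicate 1 or 2 of either group, 1 without AeEM replicate 4, and 4 without AeMM replicate 4, Rps29, Rpl38 and Rpl30 among them. The cause was not tested. Over all genes, 110 higher and 102 lower became 9 and 5 with the 3 sets, 3 and 2 with the replicate block, 0 and 0 with replicates 3 and 4 only, and 10 and 3 without both replicate 2 libraries. Without the trend, 58 were lower. Leaving out 1 library gave 40 to 106 higher and 31 to 113 lower. The direction turned for 8 genes, of which Rps27l (-0.16) was not near 0. Without both replicate 2 libraries, Rps9 became 0.0155, Rps19 0.0039, Rpl41 0.0297, Rpl11 0.0268 and Rpl22 0.134. With replicates 3 and 4 only, Rpl41 became 0.149, Rpl11 0.0279, Rps27a 0.0417, Rpl22 0.224 and Rps27l 0.109. With median-of-ratios size factors, Rpl11 became 0.00669 and Rpl22 0.0110. Leaving out 1 library moved Rps9 between -0.106 and 0.0151, Rps19 between -0.0927 and 0.00681, Rpl11 between -0.0600 and 0.0259, Rpl22 between -0.0852 and 0.0646 and Rpsa between -0.0705 and 0.0997. Rps29 kept its call in 11 of 20 alternatives and Rpl37 in 8 of 20, with adjusted p values in limma up to 0.797 and 0.799, and both kept their direction. Of 33 tested ribosomal protein genes followed across the alternatives, 25 kept their direction in every alternative. Eif5a and Tpt1 were not past the threshold with the 3 sets. What depth would limit is not known, as no counts were used.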
